A study of Mus musculus with 7 samples.

Results

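The 48 genes described here are markers of endothelial cells and signals of vessel growth, measured in pancreatic islets of pregnant mice. They are 20 endothelial surface, junction and secreted genes, 7 endothelial transcription factors, 10 angiogenic receptors, 8 angiogenic ligands and 3 lymphatic and related genes. A gene was taken from probe sets whose platform annotation gave its symbol alone, with the probe set of highest mean standing for the gene. All 48 were measured, each by 1 probe set, among 19938 genes tested from 35556 probe sets. Islets came from 7 female mice of the C57BL/6 background on day 15 of pregnancy, 1 Affymetrix array per mouse. Of these, 3 had both copies of the prolactin receptor gene (PrlR+/+, wild type) and 4 carried 1 null allele (PrlR+/-, heterozygous). The labels state that each mouse was processed by itself, that mating was set up at 12 to 16 weeks of age, and that 250 ng of RNA with an integrity number above 8.5 was labelled. One label gives the control genotype as both wild type and receptor null, and the grouping followed the source label. Probe sets of the targeted gene itself were not analysed here, which leaves the genotype of each array as labelled. Beta cell genes had means of 11.92 to 12.21 per mouse and the 37 endothelial cell genes 8.16 to 8.44 on the log2 scale. No signal over background was given, so presence of a cell type was not tested on these values.

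Islets hold a dense bed of fenestrated capillaries, and beta cells are a main source of the vascular endothelial growth factor Vegfa that maintains it. Vegfa acts on endothelial cells through the receptor Kdr, with Flt1 as a decoy and the neuropilins as co-receptors, while the angiopoietins act through Tek to stabilise or loosen vessels. Islet mass and blood supply are known to grow in rodent pregnancy, and the prolactin receptor is known to take part in the beta cell response. The comparison asked how far transcripts of the islet vessels and their signals differed when 1 receptor allele was lost.

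Promoter sequence was looked up for the members in a RefSeq table of start sites (assembly GRCm38.p6), which held windows for 25 of the 48 genes. The 250 bases before the start site are printed 5′ to 3′ on the strand of the gene for 6 of them. Emcn, Nrp2 and Dll4 are shown because their values separated or nearly separated the genotypes, Cd34 because it was highest in the mouse with the highest endothelial mean, Apln because its values ran opposite to those of Angpt2, and Vegfa as the main ligand. Capitals mark matches on either strand to the ETS core AGGAA, the SOX core AACAAT and the GC box GGGCGG.
The Emcn window is chr3:137340828-137341077 on the plus strand.
Emcn: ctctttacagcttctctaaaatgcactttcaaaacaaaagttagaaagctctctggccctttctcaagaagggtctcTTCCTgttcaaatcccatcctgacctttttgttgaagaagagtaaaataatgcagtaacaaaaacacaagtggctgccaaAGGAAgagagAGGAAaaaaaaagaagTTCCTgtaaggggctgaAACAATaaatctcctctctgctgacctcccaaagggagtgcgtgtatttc
The Nrp2 window is chr1:62703067-62703316 on the plus strand.
Nrp2: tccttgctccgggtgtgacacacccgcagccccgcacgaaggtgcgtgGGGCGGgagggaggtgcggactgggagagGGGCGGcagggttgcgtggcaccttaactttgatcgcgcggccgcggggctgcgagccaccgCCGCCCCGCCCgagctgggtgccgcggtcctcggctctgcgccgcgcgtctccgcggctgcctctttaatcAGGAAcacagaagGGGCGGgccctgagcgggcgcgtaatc
The Cd34 window is chr1:194938571-194938820 on the plus strand.
Cd34: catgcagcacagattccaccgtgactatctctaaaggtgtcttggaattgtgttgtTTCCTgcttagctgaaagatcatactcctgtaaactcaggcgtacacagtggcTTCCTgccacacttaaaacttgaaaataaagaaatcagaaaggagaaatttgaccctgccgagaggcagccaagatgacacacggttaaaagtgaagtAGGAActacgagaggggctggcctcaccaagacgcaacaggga
The Dll4 window is chr2:119325534-119325783 on the plus strand.
Dll4: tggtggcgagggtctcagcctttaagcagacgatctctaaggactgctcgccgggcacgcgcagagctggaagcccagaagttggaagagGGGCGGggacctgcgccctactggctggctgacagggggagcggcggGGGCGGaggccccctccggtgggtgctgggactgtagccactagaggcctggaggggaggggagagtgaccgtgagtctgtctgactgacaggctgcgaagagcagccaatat
The Apln window is chrX:48034854-48035103 on the minus strand.
Apln: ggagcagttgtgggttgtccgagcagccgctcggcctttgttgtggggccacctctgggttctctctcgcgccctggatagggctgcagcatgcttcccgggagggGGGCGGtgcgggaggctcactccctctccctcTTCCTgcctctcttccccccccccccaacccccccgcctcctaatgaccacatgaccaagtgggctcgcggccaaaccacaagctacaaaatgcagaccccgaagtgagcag
The Vegfa window is chr17:46032378-46032627 on the minus strand, the outer of 2 start sites in the table.
Vegfa: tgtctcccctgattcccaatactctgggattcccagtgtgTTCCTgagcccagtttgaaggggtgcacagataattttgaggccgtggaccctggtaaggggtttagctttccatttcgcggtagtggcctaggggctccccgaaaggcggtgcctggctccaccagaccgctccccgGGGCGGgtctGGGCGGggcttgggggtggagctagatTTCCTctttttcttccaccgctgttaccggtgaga

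The Emcn window held 4 matches to the ETS core, the nearest 62 bases before the start site of the table, and 1 to the SOX core 44 bases before it. That start site lies inside the gene span of the annotation, so the last 16 bases of the Emcn window are within the gene, while the other 5 windows lie outside theirs. Cd34 held 3 matches to the ETS core and neither other motif, and Dll4 held 2 GC boxes and neither other motif. Nrp2 held 5 GC boxes, 2 of them overlapping, and 1 ETS core. Over all 33 member windows, 60.6% held the ETS core, beside 60.3% of the 32851 windows in the table. The SOX core was in 9.09% of member windows and 9.42% of all windows, and the GC box in 45.5% and 32.7%. These are letter matches only, and they say nothing of which factor is bound.

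No member differed between the genotypes after adjustment over all genes. In limma, with Benjamini-Hochberg adjustment, 0 of 48 members and 0% of the 19938 genes had an adjusted p under 0.05, and the smallest adjusted p of a member was 0.99. At an unadjusted p under 0.05 there were 2 members, Emcn and Cdh5, both higher in PrlR+/- islets. They are 4.17% of the members, beside 2.2% of all genes at that limit in either direction and 1.07% higher in PrlR+/-. All PrlR+/- values lay above all PrlR+/+ values for 3 members, Emcn, Ets1 and Nrp2, and the reverse held for none. They are 6.25% of the members, beside 2.24% of all genes without overlap in either direction and 1.03% higher in PrlR+/-. At the unadjusted limit Emcn alone was left without PrlR+/+ 3, PrlR+/- 2 or PrlR+/- 4, and Acvrl1 alone without PrlR+/+ 2, where limma's unadjusted p was 0.073 for Emcn and 0.064 for Cdh5. The number of members without overlap was 7 (14.6%, beside 5.42% of all genes) without PrlR+/- 1, 6 (12.5% beside 5.67%) without PrlR+/- 2, and 5 (10.4%) without PrlR+/+ 2 or PrlR+/- 4, beside 10.3% and 3.54% of all genes. Of the 6 without PrlR+/- 2, 4 were higher and 2, Kdr and Esam, lower in PrlR+/-.

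The differences of the members were small, and on the deposited values mostly above 0. Of the 48, 35 were higher in PrlR+/- (72.9%), beside 55.7% of all genes, and the median log2 difference (PrlR+/- minus PrlR+/+) was 0.059 beside 0.014 over all genes. Without PrlR+/- 2 alone, 27 were higher and the median was 0.015, beside 0.017 over all genes. With the mean of acinar or of pericyte markers as a covariate, 26 and 23 were higher, with medians of 0.014 and -0.0055, and after quantile normalization 40 were higher, with a median of 0.072 beside 0.029 over all genes. The members ranged from -0.17 for Kdr to 0.26 for Emcn. The number of arrays limits the precision: the median standard error of a member was 0.11, beside 0.098 over all genes. For 43 members the 95% interval of the difference stayed within 1.5-fold in both directions. In whole islets, fewer cells of a type and less RNA per cell cannot be told apart, and the labels' separate mice are the only replicates.

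**Figure D1:**
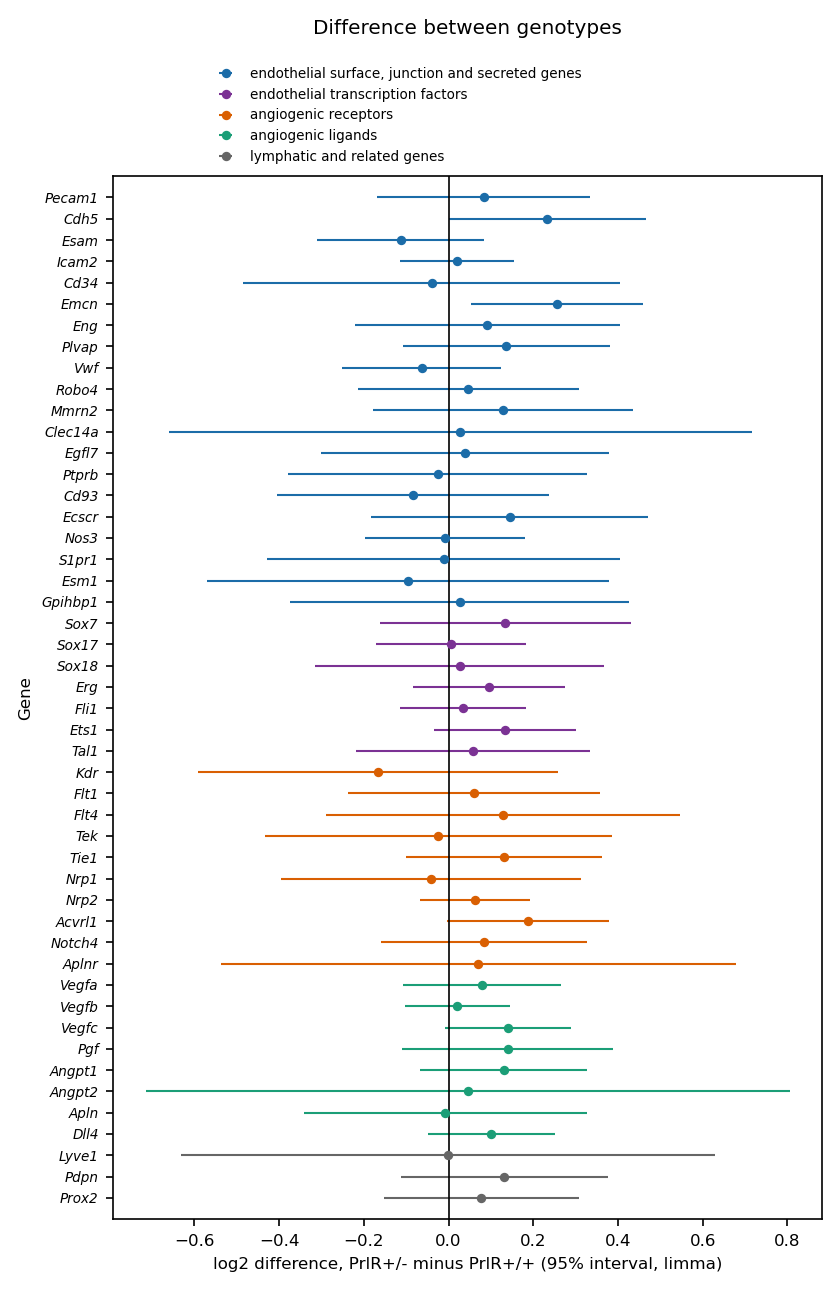
Log2 difference of each of the 48 genes (horizontal axis, PrlR+/- minus PrlR+/+, points with 95% limma intervals), coloured by role. The points run from -0.17 for Kdr to 0.26 for Emcn, and the intervals of Emcn and Cdh5 are the ones that leave out 0.

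Among the surface, junction and secreted genes, 12 of 20 were higher in PrlR+/- and the median difference was 0.027. Emcn, the sialomucin endomucin of capillary and venous endothelium, had log2 values of 11.28, 11.13 and 11.30 in the PrlR+/+ mice, numbered 1 to 3, and 11.34, 11.44, 11.59 and 11.60 in the PrlR+/- mice, numbered 1 to 4; values follow this order throughout. The 4 PrlR+/- mice all lay above the 3 PrlR+/+ mice. The difference was 0.26 ± 0.086 (SE), a 1.19-fold higher level, with an unadjusted p of 0.020 and an adjusted p of 0.99 in limma. It ranged from 0.14 to 0.31 over 18 alternative settings, and the groups stayed apart under both other scalings. Leaving out a mouse cannot make separated groups overlap, so it is no check of the separation. Cdh5, the VE-cadherin of endothelial junctions, read 9.51, 9.56 and 9.42 in PrlR+/+ and 9.49, 9.85, 9.74 and 9.84 in PrlR+/-. Its groups overlapped through PrlR+/- 1. The difference was 0.23 ± 0.099 (SE), or 1.18-fold, with an unadjusted p of 0.049 and an adjusted p of 0.99 in limma.

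Other markers of the same cells did not separate the genotypes. Pecam1, the junctional adhesion molecule CD31, read 8.72, 8.99 and 8.72 in PrlR+/+ and 8.72, 9.07, 8.94 and 8.84 in PrlR+/-, with a difference of 0.083 ± 0.11 (SE) that was 0.023 without PrlR+/- 2. Plvap, the diaphragm protein of capillary fenestrae, read 10.17, 10.07 and 10.10 in PrlR+/+ and 10.16, 10.49, 10.29 and 10.06 in PrlR+/-. Its difference was 0.14 ± 0.10 (SE) and 0.057 without PrlR+/- 2, and both the highest and the lowest mouse were heterozygous. Esam, an adhesion molecule of endothelial tight junctions, read 9.20, 9.40 and 9.19 in PrlR+/+ and 9.05, 9.28, 9.18 and 9.09 in PrlR+/-. Its difference of -0.11 ± 0.084 (SE) was the lowest of the 20 genes, and the groups overlapped. The differences of Icam2, Eng, Robo4, Mmrn2, Clec14a, Egfl7, Ecscr and Gpihbp1 lay between 0.020 and 0.14. Those of Cd34, Vwf, Ptprb, Cd93, Nos3, S1pr1 and Esm1 lay between -0.096 and -0.0075.

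Clec14a and Esm1 varied most by mouse among these 20 genes. Clec14a, a C-type lectin of endothelial cells, read 6.74, 6.55 and 6.72 in PrlR+/+ and 7.0, 7.28, 6.58 and 5.93 in PrlR+/-. The PrlR+/- mice thus spanned 1.35 on the log2 scale, on both sides of the PrlR+/+ mice. Esm1, the secreted proteoglycan endocan of sprouting tip cells, read 8.78, 8.78 and 8.85 in PrlR+/+ and 9.01, 8.68, 8.99 and 8.15 in PrlR+/-. For both genes PrlR+/- 4 was the lowest of the 7 mice.

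All 7 transcription factors had a difference above 0, from 0.0058 for Sox17 to 0.13 for Sox7, with a median of 0.058. Ets1, an ETS family factor active in endothelial cells, read 7.25, 7.26 and 7.09 in PrlR+/+ and 7.27, 7.42, 7.37 and 7.27 in PrlR+/-. The groups did not overlap, but the highest PrlR+/+ mouse and the lowest PrlR+/- mice were next to each other at the 2 decimals deposited, and they overlapped after quantile normalization or median centring. The difference was 0.13 ± 0.071 (SE), with an unadjusted p of 0.10 and an adjusted p of 0.99 in limma. Sox7, Sox17 and Sox18, which act in arterial and lymphatic vessel formation, and Erg, Fli1 and Tal1, which act in endothelial and blood cell identity, had overlapping groups. The signs of Ets1 and Sox7 held in all alternatives, whereas Sox17, Sox18 and Fli1 were lower in PrlR+/- without PrlR+/- 2, Tal1 without PrlR+/- 4 and Erg with array weights. Sox7 read 7.60 and Tal1 read 7.36 in PrlR+/- 4, where the other 6 mice lay between 7.08 and 7.17 for Sox7 and between 6.86 and 6.98 for Tal1.

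The differences of the receptors ran from -0.17 for Kdr to 0.19 for Acvrl1, and 7 of 10 were higher in PrlR+/-, with a median difference of 0.066. Kdr, the main signalling receptor for Vegfa, read 9.56, 9.54 and 9.51 in PrlR+/+ and 9.39, 9.75, 9.45 and 8.89 in PrlR+/-. The PrlR+/+ mice were close together, 1 PrlR+/- mouse lay above them and 3 lay below. The difference was -0.17 ± 0.18 (SE), with an adjusted p of 0.99 in limma, and it was -0.0067 without PrlR+/- 4. Flt1, the decoy receptor, read 9.80, 9.79 and 9.75 in PrlR+/+ and 9.53, 10.09, 9.79 and 9.95 in PrlR+/-. Its groups overlapped at a difference of 0.060 ± 0.13 (SE), which was -0.023 without PrlR+/- 2. Nrp1, a co-receptor for Vegfa, read 9.31, 9.31 and 9.30 in PrlR+/+ and 9.28, 9.51, 9.42 and 8.85 in PrlR+/-, so that its lowest mouse was also PrlR+/- 4.

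Nrp2, the neuropilin of venous and lymphatic endothelium, read 6.64, 6.64 and 6.59 in PrlR+/+ and 6.65, 6.68, 6.65 and 6.76 in PrlR+/-. The groups did not overlap, again by a gap at the limit of the deposited decimals, and they overlapped after quantile normalization or median centring. The difference was 0.062 ± 0.056 (SE), with an unadjusted p of 0.30 in limma. Acvrl1, the receptor ALK1 for BMP9 and BMP10, read 7.68, 7.88 and 7.78 in PrlR+/+ and 7.90, 8.12, 7.88 and 7.97 in PrlR+/-. The groups met at 7.88, and the difference was 0.19 ± 0.082 (SE), or 1.14-fold, with an unadjusted p of 0.054 and an adjusted p of 0.99 in limma.

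The angiopoietin receptor Tek and its partner Tie1 differed in PrlR+/- 4, which was the lowest mouse for Tek and the second highest for Tie1. Tek read 7.64, 7.73 and 7.42 in PrlR+/+ and 7.58, 7.92, 7.64 and 7.15 in PrlR+/-, with the highest and the lowest mouse both heterozygous. Its difference of -0.024 ± 0.17 (SE) became 0.12 without PrlR+/- 4. Tie1 read 8.33, 8.34 and 8.31 in PrlR+/+ and 8.31, 8.71, 8.38 and 8.43 in PrlR+/-, with a difference of 0.13 ± 0.098 (SE) that was 0.047 without PrlR+/- 2. The differences of Flt4, the receptor for Vegfc, Notch4, a receptor for Dll4, and Aplnr, the receptor for apelin, were 0.13, 0.084 and 0.070, with overlapping groups.

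**Figure D2:**
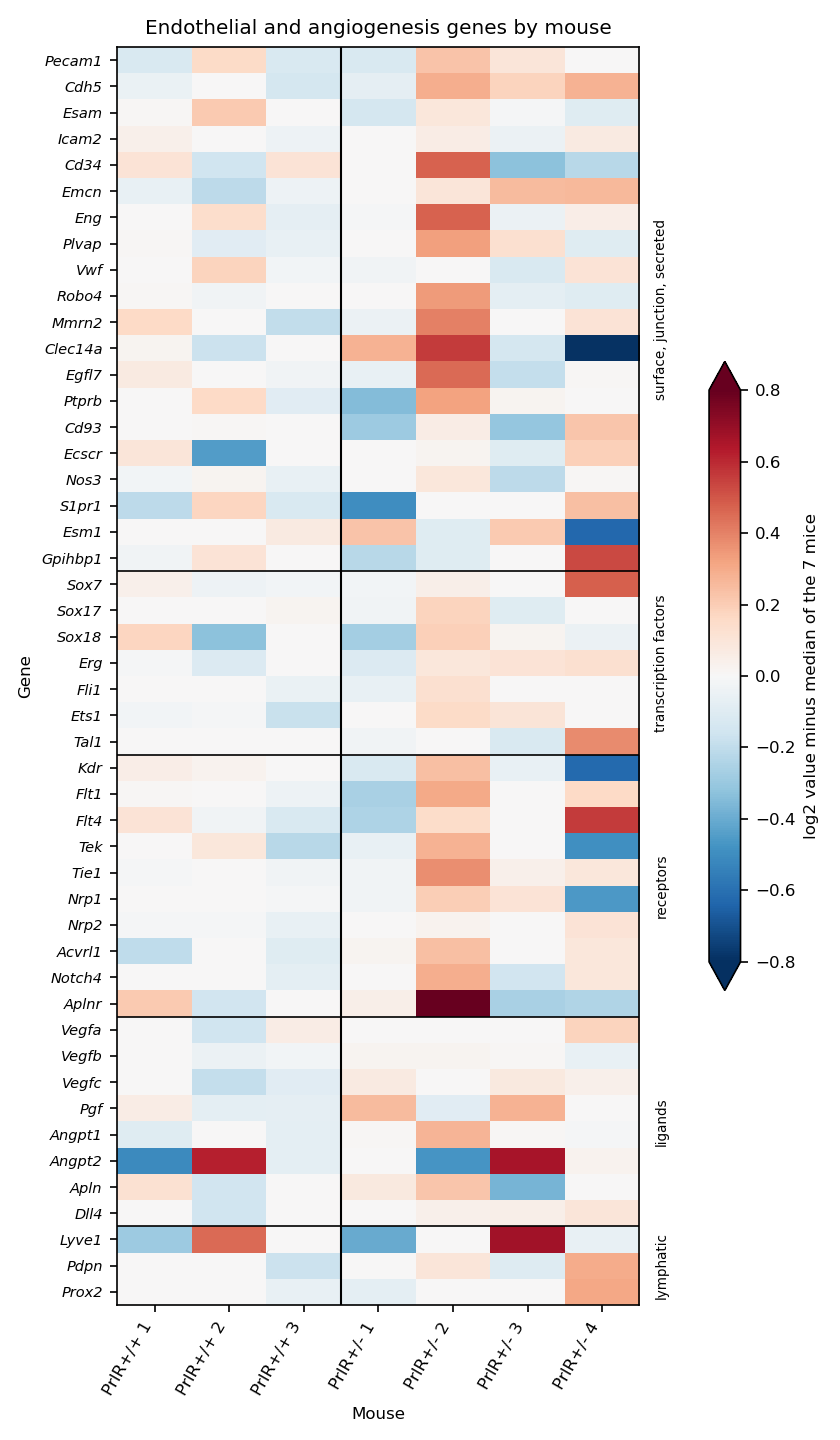
Log2 value of each gene (rows, grouped by role) in each of the 7 mice (columns), shown as the difference from the median of the 7 mice, with red for higher and blue for lower. PrlR+/- 2 is the reddest column through the endothelial rows, with 23 of 37 genes highest there, and PrlR+/- 4 holds both the lowest Kdr (8.89) and the highest Sox7 (7.60).

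Of the 8 ligands, 7 were higher in PrlR+/- and none passed the unadjusted limit. Vegfa read 11.54, 11.38 and 11.60 in PrlR+/+ and 11.54, 11.54, 11.54 and 11.72 in PrlR+/-. An equal value thus stood in 4 of the 7 mice. Equal values in 3 or more mice occurred in 18.8% of the members and 34.5% of all genes. The groups of Vegfa overlapped, and its difference was 0.078 ± 0.079 (SE), with an adjusted p of 0.99 in limma. Its 95% interval ran from -0.11 to 0.26, and the difference was 0.015 without PrlR+/+ 2 and 0.033 without PrlR+/- 4. Vegfc, the growth factor of lymphatic vessels, read 6.23, 6.04 and 6.14 in PrlR+/+ and 6.30, 6.23, 6.31 and 6.27 in PrlR+/-, with the groups meeting at 6.23. Its difference was 0.14 ± 0.064 (SE), with an unadjusted p of 0.061 and an adjusted p of 0.99 in limma. Dll4, the Notch ligand of tip cells, read 8.23, 8.07 and 8.23 in PrlR+/+ and 8.23, 8.27, 8.28 and 8.33 in PrlR+/-. Its groups met at 8.23 and the difference was 0.10 ± 0.064 (SE). Pgf and Vegfb, which bind Flt1, had differences of 0.14 ± 0.11 and 0.021 ± 0.053 (SE).

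The angiopoietins differed in how much they varied. Angpt1, the agonist of Tek, read 4.19, 4.29 and 4.21 in PrlR+/+ and 4.30, 4.56, 4.30 and 4.28 in PrlR+/-. It lay below 5.71, the 25th percentile of gene means, as did Prox2. Its difference was 0.13 ± 0.084 (SE). Angpt2, the antagonist that loosens vessels, read 6.88, 8.01 and 7.31 in PrlR+/+ and 7.39, 6.92, 8.05 and 7.42 in PrlR+/-. Both genotypes covered almost the whole range of 1.17, and the difference was 0.045 ± 0.32 (SE). It was -0.22 without PrlR+/+ 1 and -0.16 without PrlR+/- 3. Apln, the ligand of Aplnr, read 7.85, 7.58 and 7.73 in PrlR+/+ and 7.81, 7.95, 7.36 and 7.73 in PrlR+/-, with a difference of -0.0075 ± 0.14 (SE).

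The mean log2 value of the 8 ligands was 8.035, 8.068 and 8.054 in the PrlR+/+ mice and 8.142, 8.088, 8.179 and 8.124 in the PrlR+/- mice. As deposited these means did not overlap. After quantile normalization the PrlR+/+ means ran up to 8.090 and the PrlR+/- means down to 8.069, and after median centring they ran up to 8.178 and down to 8.038, so they overlapped in both. The median difference of the ligands was 0.090 and stayed between 0.062 and 0.12 in all alternatives. The low end came from the filters on dim genes, which left out Vegfc and Angpt1 and kept 6 ligands. With all 8 ligands the lowest median was 0.068. No test was made of the mean, since the list was chosen with earlier results known.

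Among the 3 lymphatic and related genes, Lyve1, a hyaluronan receptor of lymphatic endothelium and of some macrophages, spanned 1.07. It read 8.98, 9.72 and 9.27 in PrlR+/+ and 8.87, 9.27, 9.94 and 9.21 in PrlR+/-, and its difference of -0.00083 ± 0.27 (SE) was near 0 beside that spread. Pdpn, the podoplanin of lymphatic endothelium, and Prox2, a homeobox gene related to the lymphatic regulator Prox1, had differences of 0.13 ± 0.10 and 0.078 ± 0.098 (SE). Both were highest in PrlR+/- 4.

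A pattern by mouse ran through the 37 endothelial cell genes (surface, junction and secreted genes, transcription factors and receptors). Their mean was 8.239, 8.215 and 8.183 in PrlR+/+ and 8.161, 8.439, 8.202 and 8.239 in PrlR+/-, so PrlR+/- 2 lay above the other 6 mice, which spanned 8.161 to 8.239. PrlR+/- 2 had the highest value of the 7 mice for 23 of the 37 genes (62.2%), beside 11.8% of all genes, and the lowest for none. Eng, a co-receptor for TGF-beta ligands, read 10.59 there and between 10.05 and 10.26 in the other mice. Robo4, an endothelial guidance receptor, read 8.78 there and between 8.34 and 8.45 in the others, and Cd34, a sialomucin of capillary endothelium and progenitors, read 9.89 there and between 9.09 and 9.53. The median difference of the 37 genes between genotypes, 0.047, was -0.023 without PrlR+/- 2.

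Markers of other cells were high in the same mouse. For 11 acinar cell genes PrlR+/- 2 had a mean of 12.16, and the means of the other mice ran from 11.46 to 11.87. For 15 pericyte and smooth muscle genes the mean was 7.91 there and from 7.64 to 7.80 elsewhere, that of 10 stellate cell and fibroblast genes 7.84 and between 7.31 and 7.58, and that of 17 vascular basement membrane genes and angiogenesis inhibitors 8.36 and between 7.99 and 8.22. The 9 beta cell genes had a mean of 12.12 there, within the 11.92 to 12.21 of the others. The part of these cells in the endothelial values was not tested. In fits with a marker mean as a covariate, the median difference of the 37 genes was -0.011 (acinar) and -0.041 (pericyte). Both marker means were highest in PrlR+/- 2, so these fits cannot tell other cells from that 1 array.

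**Figure D3:**
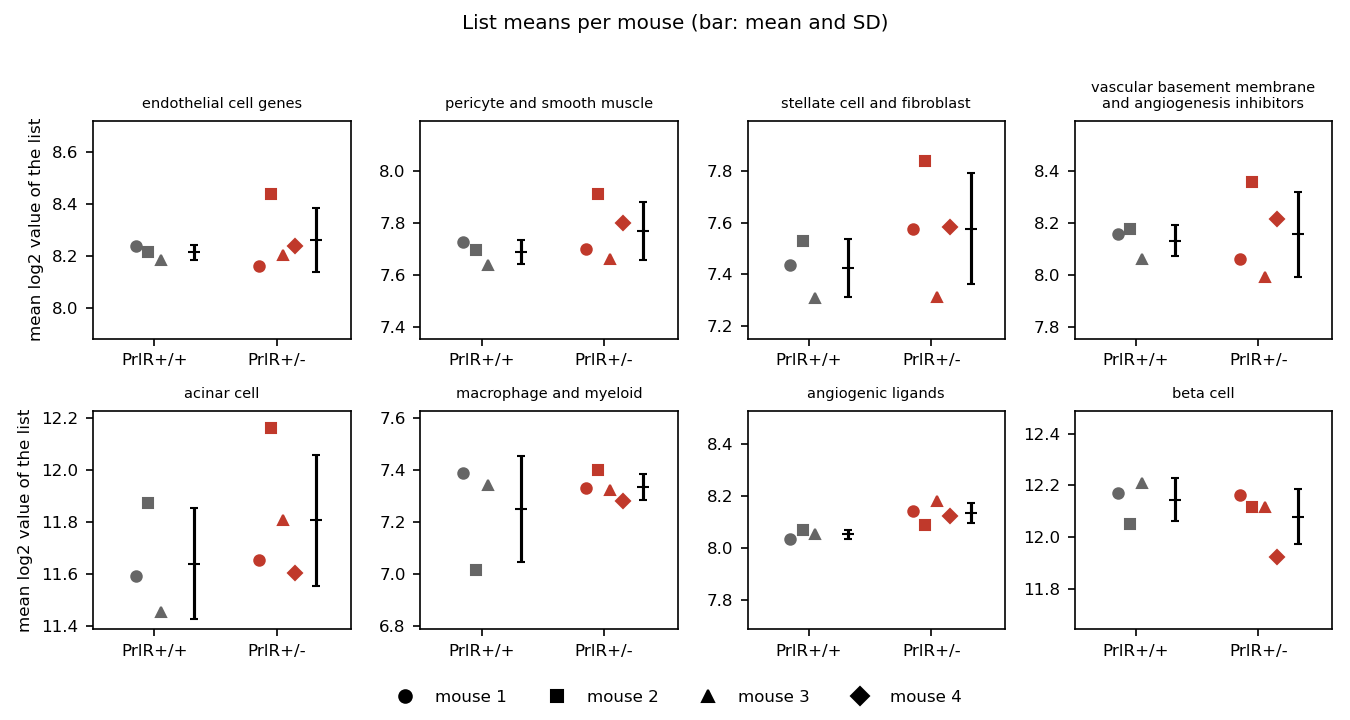
Mean log2 value of 8 gene lists in each mouse (grey, 3 PrlR+/+ mice; red, 4 PrlR+/- mice; marker shape, mouse number), with the mean and SD of each group as a black bar; each panel spans the same number of log2 units. PrlR+/- 2 (square) is the highest mouse for endothelial (8.439), pericyte, stellate, basement membrane and acinar genes, and the ligand means of the genotypes lie apart as deposited.

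PrlR+/- 4 was not uniformly high or low. Of the 48 members it held the lowest value for 8, among them Kdr, Nrp1, Tek, Clec14a and Esm1. It held the highest value for 15, among them Flt4, Gpihbp1 (the capillary anchor of lipoprotein lipase), Sox7, Tal1, Pdpn and Prox2. It was the highest mouse for 29.7% of the endothelial cell genes and 29.3% of all genes, and the lowest for 18.9% and 17.8%. This array had the lowest weight when limma estimated one for each array, 0.293, where the highest was 2.74 in PrlR+/+ 3.

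Across the 7 mice the endothelial cell genes varied together. Each gene was set against the mean of the other 36, and the median Pearson r was 0.56, beside 0.0059 for all other genes against the endothelial mean. Of the 37 genes, 12 (32.4%) had an r above 0.7, beside 4.83% of the other genes. With values centred within genotype the median r was 0.58. Without PrlR+/- 2 it was 0.37, with 10.8% of the genes above 0.7 beside 3.94% of other genes. There 25 of the 37 genes had an r above 0, and 35 had one with all 7 mice. Without PrlR+/- 4 the median r was 0.73, with 54.1% above 0.7 beside 8.22%. Such values were not particular to endothelial genes. Basement membrane, acinar, pericyte and stellate lists had a median r of 0.67, 0.66, 0.57 and 0.56 with the endothelial mean, and other endothelial genes 0.43. The correlations describe 7 arrays that share 1 normalization, and genes are not independent replicates.

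The ETS factor Fli1 had the highest r, 0.98, and 0.87 without PrlR+/- 2, although its own range was 0.19. Fli1 read 7.44 in 4 of the 7 mice, 7.57 in PrlR+/- 2, 7.39 in PrlR+/+ 3 and 7.38 in PrlR+/- 1. Its r thus rests on the few mice away from the equal value. Tie1 (0.96), Eng (0.93), the secreted vessel factor Egfl7 (0.93) and the matrix glycoprotein Mmrn2 (0.89) came next. Esm1 ran against the others at -0.38 and Gpihbp1 at -0.11. Kdr stood at 0.33 over all mice and at 0.94 without PrlR+/- 4, and Nrp1 at 0.28 and 0.84. Emcn, the member with the smallest p between genotypes, did not follow the endothelial mean (0.14), and Cdh5 followed it at 0.62. The median r of the 8 ligands with the endothelial mean was 0.12.

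Ligands were compared with their receptors in 11 pairs across the 7 mice, by exact permutation over all 5040 pairings, two-sided, with Benjamini-Hochberg adjustment over the pairs. No pair passed for Pearson's r or Spearman's rho, and 1 had an unadjusted p under 0.05. That pair, apelin and its receptor, had r = 0.77 (exact permutation p = 0.057, adjusted 0.42) and rho = 0.94 (exact permutation p = 0.0048, adjusted 0.052). Aplnr read 7.61, 7.25 and 7.40 in PrlR+/+ and 7.45, 8.21, 7.14 and 7.16 in PrlR+/-, with PrlR+/- 2 highest for both genes, and without PrlR+/- 2 and PrlR+/- 3 r was 0.73. Vegfa and Kdr gave r = -0.69 (exact permutation p = 0.11, adjusted 0.42) and rho = -0.51 (exact permutation p = 0.27, adjusted 0.58), and r was -0.089 without PrlR+/+ 2 and PrlR+/- 4. Angpt1 and Tek gave r = 0.58 and Angpt2 and Tek r = -0.086, with exact permutation p of 0.19 and 0.87.

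Over all 1128 pairs of members no correlation passed the adjustment by the same exact permutation test (smallest adjusted p 0.30 for r and 0.43 for rho), and 109 had an unadjusted p under 0.05 for r. Pairs of other genes were not tested, so that number has no share over all genes beside it, and the pairs have genes and mice in common. The following pairs were chosen after their values were seen. Angpt2 and Apln ran opposite to each other, with r = -0.92 and rho = -0.90 (exact permutation p = 0.0024 and 0.0095, adjusted 0.30 and 0.43). Without PrlR+/+ 2 and PrlR+/- 3, the mice of high Angpt2, r was -0.81. Emcn and Dll4 varied together over both genotypes, with r = 0.90 and rho = 0.96 (exact permutation p = 0.0012 and 0.0024, adjusted 0.30 and 0.43), and r was 0.93 without PrlR+/- 3 and PrlR+/- 4. Cdh5 and Tie1 gave r = 0.77 and rho = 0.99 (exact permutation p = 0.0004 and 0.00079, adjusted 0.30 and 0.43), and r was 0.97 without PrlR+/- 2 and PrlR+/- 4.

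Kdr and Nrp1 gave r = 0.95 over the 7 mice, rho = 0.77 (exact permutation p = 0.015 and 0.049, adjusted 0.45 and 0.54). The relation rested on PrlR+/- 2 and PrlR+/- 4, without which r was -0.10. Cd34, Robo4 and Aplnr had r of 0.91 for Cd34 and Robo4, 0.96 for Cd34 and Aplnr, and 0.97 for Robo4 and Aplnr, each with an adjusted p of 0.30 for r by exact permutation. Without the 2 mice farthest from the median these were 0.88, 0.89 and 0.91. Cd93, a lectin-like receptor, and Esm1 ran opposite at r = -0.86 and rho = -0.94 (exact permutation p = 0.0016 and 0.0040, adjusted 0.30 and 0.43). Without PrlR+/- 1 and PrlR+/- 3 r was -0.99. PrlR+/- 4 held the highest Cd93 (9.20) and the lowest Esm1 (8.15), and without that mouse alone r was -0.95.

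**Figure D4:**
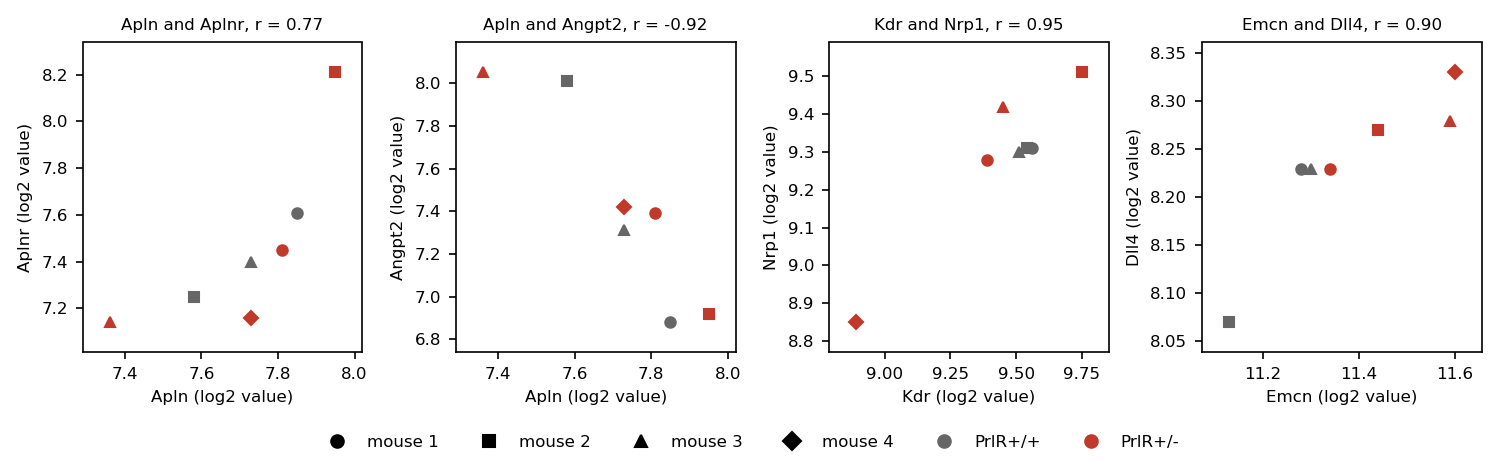
Log2 values of 4 pairs of genes, 1 point per mouse (grey, PrlR+/+; red, PrlR+/-; marker shape, mouse number). Apln is high where Aplnr is high (r = 0.77) and Angpt2 is low (r = -0.92), while the Kdr and Nrp1 relation (r = 0.95) rests on the outer 2 mice and Emcn with Dll4 (r = 0.90) spreads over all 7.

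The other genes of vessels and their surroundings were read from further lists, and 0 genes of any list passed the adjusted threshold in limma. The 2 genes named for a list are those of smallest unadjusted p, which need not be those of largest difference. Of 27 other endothelial genes measured, 21 were higher in PrlR+/- (median 0.038, range -0.27 to 0.30), with Myct1 at 0.30 ± 0.15 and Cyyr1 at 0.18 ± 0.088 (SE). Of 38 other angiogenic signals and receptors, 27 were higher (median 0.087, range -0.13 to 0.36). Pdgfc, a ligand of the receptor Pdgfra, was at 0.22 ± 0.082, and the BMP target Id3 at 0.16 ± 0.061 (SE), with unadjusted p of 0.028 and 0.036 and adjusted p of 0.99 in limma. Id3 read 6.65, 6.55 and 6.48 in PrlR+/+ and 6.69, 6.74, 6.69 and 6.74 in PrlR+/-, without overlap.

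Of 18 hypoxia response genes, which include the drivers of Vegfa, 10 were higher in PrlR+/- and the median was 0.014, the same as over all genes. Epas1, which encodes the hypoxia factor of endothelial cells HIF-2 alpha, read 9.55, 9.77 and 9.55 in PrlR+/+ and 9.56, 9.98, 10.21 and 10.28 in PrlR+/-, a difference of 0.38 ± 0.17 (SE). Hif1a had the opposite sign, with 10.53, 10.67 and 10.75 in PrlR+/+ and 10.53, 10.52, 10.42 and 10.01 in PrlR+/-, a difference of -0.28 ± 0.14 (SE). The groups overlapped in PrlR+/- 1 for both genes, and the adjusted p was 0.99 for each in limma. Of 17 basement membrane genes and angiogenesis inhibitors 11 were higher (median 0.021, range -0.46 to 0.29), with Sparcl1 at 0.20 ± 0.085 and Serpinf1 at 0.29 ± 0.14 (SE).

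Of the 15 pericyte and smooth muscle genes, 11 were higher (median 0.035, range -0.058 to 0.35), with Ndufa4l2 at 0.35 ± 0.16 and Des at 0.14 ± 0.077 (SE). Of 10 stellate cell and fibroblast genes, 9 were higher (median 0.14, range -0.071 to 0.34), with Thy1 at 0.34 ± 0.088 and Postn at 0.29 ± 0.17 (SE), and Thy1 did not overlap between the groups. Of 14 macrophage and myeloid genes, 10 were higher (median 0.048). Lyz2, lysozyme of myeloid cells, was at 0.64 ± 0.10 without overlap (unadjusted p of 0.00029, adjusted p of 0.99 in limma), and Aif1 at 0.15 ± 0.11 (SE). Acinar genes were higher in 10 of 11 (median 0.13), with Try4 at 0.44 ± 0.20 and Cela2a at 0.14 ± 0.12 (SE). Beta cell genes were higher in 3 of 9 (median -0.041), with Nkx6-1 at 0.11 ± 0.062 and Slc2a2 at -0.34 ± 0.21 (SE).

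Genes of blood cells and of mesothelium, which covers the pancreas, made up the last lists. Of 6 platelet genes 3 were higher (median -0.0058), with Gp9 at -0.19 ± 0.11 and Treml1 at 0.10 ± 0.076 (SE). Both measured red blood cell genes, Alas2 and Slc4a1, were at 0.038 and 0.046. Of 5 mesothelial genes 4 were higher (median 0.036), with Msln at -0.36 ± 0.15 (unadjusted p of 0.044, adjusted p of 0.99 in limma) and Lrrn4 at 0.098 ± 0.076 (SE). By the median r with the endothelial mean, the lists ran from basement membrane (0.67), acinar (0.66), pericyte (0.57), stellate (0.56) and other endothelial genes (0.43) down to beta cell (-0.072), red blood cell (-0.13) and hypoxia genes (-0.17). That order rested on PrlR+/- 2: without it the first 5 lists were at 0.16, 0.076, 0.18, 0.17 and 0.21, and the highest were mesothelial (0.51) and red blood cell genes (0.24).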

How the data were processed

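Transcripts were measured in islets of 7 mice with 1 Affymetrix array each. The deposited table holds log2 values from 1.73 to 13.97 with 2 decimals; their size is the ground for calling them log2. They were made with Affymetrix Expression Console 1.2.0.20, per the submitters' processing notes; how background was corrected and arrays were normalized and summarized is not given in the sources used here. Arrays have no read depth. Gene medians lay between 7.34 and 7.37 on all arrays, and pairs of arrays correlated at 0.988 to 0.997 across genes, which are not independent replicates. Scan batches were not analysed here.

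Probe sets were named by the platform annotation: 21789 had 1 symbol, 1621 several and 12146 were not listed; those without 1 symbol were left out. For 999 genes with several probe sets, the one of highest mean was kept. All 19938 genes were fitted, unfiltered, with limma 3.58.1 (lmFit, eBayes, 2-sided) in R 4.3.3, and a gene counted as called at a Benjamini-Hochberg adjusted p under 0.05; the fit was tested on simulated data. Tables, permutations and plots used Python 3.11.15 with pandas 2.3.3, numpy 2.4.6, scipy 1.17.1 and matplotlib 3.10.9.

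The members and lists were chosen with earlier results of these data known. The lists beside the members were other endothelial genes, other angiogenic signals, hypoxia response, basement membrane and inhibitors, pericyte, stellate, macrophage, platelet, red blood, acinar, beta and mesothelial cell genes. Values of every mouse were to be given for Vegfa, Kdr, Flt1, Pecam1, Cdh5, Plvap, Tek and Angpt2, the 8 members of smallest p and members without overlap, and of each other list the 2 genes of smallest p; other members with single values were chosen after their values were seen. Alternatives were variance models, array weights, quantile normalization, median centring of arrays, leaving out dim genes (those with a mean under the 40th percentile, or not above the array median in 3 or more arrays), averaging the probe sets of a gene, acinar or pericyte means as covariates, the replicate number as a block and leaving out each mouse. Leaving out both PrlR+/- 2 and PrlR+/- 4 was added after the data were seen. Replicate numbers were given in the labels for both genotypes, but same-numbered mice did not deviate together.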

Additional observations from a re-analysis of the deposited data

Results flagged for a closer look

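Among the 4 PrlR+/- mice, 55 genes and list means were checked for 1 mouse standing apart by Dixon's criterion, and 6 were found. The nominal rate of the criterion is about 1 in 20, for values without ties. The share over all genes was not computed, and a list mean is not independent of its genes. The number found is therefore not read as an excess among the members. Sox7 read 7.60 in PrlR+/- 4, where the nearest mouse of the group read 7.17. Vegfa read 11.72 in PrlR+/- 4 and 11.54 in the other 3, so that the criterion there depends on equal values. Vegfb was lowest in PrlR+/- 4 at 10.05, with the nearest at 10.12. Erg, an endothelial ETS factor, was lowest in PrlR+/- 1 at 7.33, with the nearest at 7.53. Angpt1 was highest in PrlR+/- 2 at 4.56, with the nearest at 4.30. Equal values also stood in 2 PrlR+/- mice for Vegfb (10.13) and for Angpt1 (4.30). The mean of the 10 angiogenic receptors was highest in PrlR+/- 2 at 8.440, with the nearest at 8.117. The 3 PrlR+/+ mice are too few for this criterion.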

How the results depend on the processing

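No member passed the adjusted threshold in any of 18 alternatives (smallest adjusted p 0.82 in limma), and 0 of all genes did. The number of members at an unadjusted p under 0.05, 2 as deposited (Emcn and Cdh5), was 1, Emcn, with an intensity trend, robust eBayes, median centring or either filter on dim genes, and 1, Acvrl1, with array weights or the replicate block, where Emcn had p of 0.074 and 0.055 in limma. It was 1 to 3 when a mouse was left out and 2 with either covariate. With the acinar covariate the 2 were Emcn and Esam, with Esam lower in PrlR+/- at -0.19 (unadjusted p of 0.025 in limma). Cdh5 had an unadjusted p of 0.13 with the acinar and 0.17 with the pericyte covariate in limma. The number without overlap, 3 as deposited (2.24% of all genes), was 1 after median centring (2.34%), 2 after quantile normalization, Emcn and Dll4 (3.57%), and 3 to 7 when a mouse was left out, where all genes gave 3.54% to 10.3%. Leaving out a mouse can only keep or raise that number. Same-numbered mice correlated in their deviations at 0.090, -0.39 and -0.029. These values gave no sign of a pairing, but they cannot show that the numbers carry none. The replicate block leaves PrlR+/- 4 without a partner. Of all genes, 341 had an unadjusted p under 0.05 in limma with the block and 438 without. Of the 48 members, 29 changed sign in at least 1 alternative, among them 4 of the 16 genes named by rule. Flt1 was -0.062 with array weights, -0.011 and -0.073 with the acinar and pericyte covariates. Pecam1 was -0.014 with the acinar covariate. Tek was 0.084 with array weights and 0.12 in the fit with the replicate block. When a mouse was left out, Flt1 ran from -0.023 to 0.16, Tek from -0.14 to 0.12 and Angpt2 from -0.22 to 0.35. Without both PrlR+/- 2 and PrlR+/- 4, an alternative chosen after seeing the data, the median difference was -0.0075 for the members, -0.033 for the endothelial cell genes and 0.074 for the ligands. The median covariation of the endothelial cell genes was 0.43 after quantile normalization and 0.41 after median centring, and 0 ligand and receptor pairs passed in any alternative. The causes were not tested. Signal over background was not given, which limits what dim genes such as Angpt1 can show.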
